A study of Caenorhabditis elegans with 2 samples.

Results

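Promoter peaks of the transcription factor HLH-12 that lie away from small RNA genes are described here from chromatin immunoprecipitation followed by sequencing (ChIP-seq) in the nematode Caenorhabditis elegans. A peak was a member when its summit, the position of highest signal, lay in a promoter, taken as the stretch that runs from 1000 bp before the 5′ end of a coding gene to 200 bp into it. It also had to lie more than 200 bp from every tRNA, snoRNA, snRNA, rRNA and microRNA gene. Of the 6661 nuclear peaks that the authors called on both replicates together, 1538 (23.1%) met this rule. The rule used position alone and no signal.

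The study had 1 group with 2 biological replicates of whole hermaphrodites at the young adult stage, 64 hours after they had been synchronized as starved first-stage larvae. All worms were of strain OP538, which carries unc-119(tm4063) III and the insertion wgIs538. The insertion expresses HLH-12 with a GFP-FLAG tag at its C terminus, and the protein was precipitated with an anti-GFP antibody after sonication. Both replicates thus come from a single transgenic line, and the labels used here do not give the cells in which the tagged protein is made. Whole worms hold every tissue, so a peak does not tell which cells carried it. With 1 group there were no groups of samples to compare, and no test was run. Shares are given with 95% Wilson intervals, which cover only the sampling of peaks or, for gene lists, of genes. The intervals treat genes as independent, although genes of a list can share a peak. Signals are the authors' peak values, for which neither depth nor scaling is given, and adding up both replicate signals of a peak gave about its pooled signal (median ratio 1.02). No library from worms without the tag was analysed here. The deposited −log10 q of the members had a median of 0.0786 and a maximum of 1.13, and 0 of the 1538 reached a q of 0.05, which was also the count for the other 5123 nuclear peaks.

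Basic helix-loop-helix factors bind DNA as dimers at a short palindrome-like sequence, the E-box CANNTG. In C. elegans, HLH-12 works with the partner HLH-2, and loss of it disturbs how the distal tip cells move as they draw out the gonad. Worm promoters are compact. Many messenger RNAs of C. elegans receive a spliced leader, so that the annotated 5′ end of a gene can lie downstream of the place where transcription starts, and genes on opposite strands often share one upstream region.

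The stretch within 50 bp of the summit, in ce11 and on the plus strand, shows what these peaks hold. The sequences below are those of strong members, read from the RefSeq genome of the same assembly (WBcel235), with every E-box in capitals. The first 5 were chosen for pooled signal, and the last 3, nspc-17 again among them, for the E-box form CACATG (or CATGTG on the other strand).
fbxb-58 (chrX:1627122-1627222): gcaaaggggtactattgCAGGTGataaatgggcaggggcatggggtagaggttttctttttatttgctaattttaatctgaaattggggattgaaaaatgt
F59A1.18 (chrV:17687562-17687662): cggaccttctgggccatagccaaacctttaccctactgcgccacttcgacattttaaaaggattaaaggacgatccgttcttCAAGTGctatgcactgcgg
sms-3 (chrIII:1601593-1601693): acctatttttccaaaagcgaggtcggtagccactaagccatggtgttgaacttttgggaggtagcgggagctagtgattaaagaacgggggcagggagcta
rpl-3 (chrIII:3867527-3867627): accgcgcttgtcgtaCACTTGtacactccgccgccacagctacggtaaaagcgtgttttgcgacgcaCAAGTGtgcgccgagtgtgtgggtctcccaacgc
nspc-17 (chrX:14525827-14525927): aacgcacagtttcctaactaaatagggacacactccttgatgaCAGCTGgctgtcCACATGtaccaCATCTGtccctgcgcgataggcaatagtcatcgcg
atx-2 and ecps-1 (chrIII:10461317-10461417): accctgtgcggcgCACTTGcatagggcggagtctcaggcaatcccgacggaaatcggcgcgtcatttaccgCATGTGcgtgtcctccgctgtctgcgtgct
cdgs-1 (chrIV:7816560-7816660): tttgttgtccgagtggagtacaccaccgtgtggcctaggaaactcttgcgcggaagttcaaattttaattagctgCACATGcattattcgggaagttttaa

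The first 5 come from the 9 strongest members. Not shown are 3 of the 9 on chromosome I, which are F56G4.6 with wbp-4, W04C9.4 and wwp-1, and the peak at cux-7, C07H6.2 and lig-4, which holds CACATG and lies in an untranslated exon. An E-box was in 6 of the 9 and was missing at F56G4.6, W04C9.4 and sms-3. The windows shown differed in their E-boxes. The window of nspc-17 held 3, each of another form, while that of sms-3 held 0. Most of them were rich in G and C. rpl-3 had 59.4% GC, the atx-2 window 62.4% and fbxb-58 38.6%, against a mean of 38.3% ± 9.61 (SD) over all 1538 members. The mean was 35.9% in 3076 flanking windows centred 300 bp to either side of the same summits, and 35.1% in 211641 windows of the same length that tile all promoters under the same rule. No such window occurred more than once among the members.

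Of the members, 20 (1.30%, 0.843% to 2.00%) were in the short list that the authors cut by the irreproducible discovery rate (IDR), which weighs how alike 2 lists rank a peak, against 3.45% of all nuclear pooled peaks and 4.10% of the peaks that are not members. Away from small RNA genes and outside promoters, the share was 1.32% of intergenic, 0.717% of intronic and 0.348% of coding exon peaks. Of the 129 promoter peaks at small RNA genes, 31.8% were in the IDR list. The 20 members in it were those of highest pooled signal, 57.6 to 117.3, and their summits lay in the promoters of 26 genes. All 20 overlapped a peak in each replicate list. The gene mppb-1, a subunit of the peptidase that trims proteins imported into mitochondria, had the weakest of them (57.6), and Y69A2AR.31 the strongest member outside the IDR list (57.1). In the list of replicate 1 the signals of the 20 had a lowest value of 14.9, a median of 37.5 and a highest value of 60.8. In the list of replicate 2 these were 14.9, 31.3 and 55.3.

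The strongest member stood in the shared upstream region of F56G4.6 and wbp-4 on chromosome I, 116 bp upstream of the first and 170 bp upstream of the second, which run in opposite directions. Its pooled signal was 117.3, with 60.8 in replicate 1 and 55.3 in replicate 2, so both lists held it among their strong peaks. RefSeq names the products by a Rod_C domain and a U1-type zinc finger domain. The second was fbxb-58, which encodes an F-box associated protein, with 79.2 pooled, 46.2 in replicate 1 and 33.3 in replicate 2. Its summit lay 965 bp upstream, near the edge of the promoter window. F59A1.18, which encodes a saposin-like protein, had 76.1 pooled, 46.6 in replicate 1 and 33.1 in replicate 2.

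Some of the 20 had like signals in both replicates and some did not. W04C9.4, an uncharacterized gene, had 41.1 in replicate 1 and 38.99 in replicate 2 (40.04 ± 1.48, SD, n = 2). The peak at cux-7, C07H6.2 and lig-4 had 30.7 and 32.2 (31.5 ± 1.06, SD, n = 2). lig-4 encodes DNA ligase IV, which joins broken DNA ends, and C07H6.2 encodes a homolog of PPP1R11. At rpl-3, a gene of the large ribosomal subunit, replicate 1 gave 50.8 and replicate 2 gave 15.6 (33.2 ± 24.9, SD, n = 2). At ddx-23, a homolog of a spliceosomal RNA helicase, the values were 47.9 and 14.9. At egrh-2 and lep-2 they were 14.9 and 38.4, high in replicate 2 alone. egrh-2 encodes a zinc finger protein and lep-2 a makorin, a protein that acts in the timing of C. elegans development. Replicate 1 was higher at 15 of the 20 and replicate 2 at 5, and at 3 of the 20 one replicate was more than 2 times the other.

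The other members of the IDR list stood at genes of mixed roles. wwp-1, on chromosome I, encodes a HECT-type ubiquitin ligase, and its peak had 43.8 in replicate 1 and 34.4 in replicate 2. sms-3 encodes a sphingomyelin synthase homolog (42.2 and 29.4), and nspc-17 a nematode-specific peptide (39.5 and 25.4). K05F1.6, which encodes a membrane transporter of the major facilitator superfamily, had 52.8 and 30.6. Its summit was the member nearest to a small RNA gene, at 209 bp, while the promoter peak just inside that limit lay at 186 bp with a pooled signal of 32.1. atx-2, the ataxin-2 homolog that acts in translational control, shares a peak with ecps-1, a proteasome-associated protein (21.1 and 31.9). T13C5.6, a phosphatase-domain gene, had 26.2 and 42.6. The peak of pcrg-1, the homolog of a gene next to parkin in mammals, and of E04F6.6 had 28.1 and 33.9. K12H4.5, Y38C1AA.12, T07F10.3 and W08A12.2 complete the list, with pooled signals of 63.4, 63.1, 59.7 and 58.5. The summits at wwp-1, K05F1.6 and pcrg-1 lay inside other noncoding RNA genes, a class outside the rule, and that at T13C5.6 lay 33 bp from one. Of the 1538 members, 109 lay within 200 bp of such a gene. The like share of the tiled windows is not given here.

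The members had a median pooled signal of 30.5 (lower quartile 28.0, upper quartile 35.1), against 30.7 for the other 5123 nuclear peaks. Peaks present in both replicate lists numbered 931 (60.5%, 58.1% to 62.9%), against 62.1% of all nuclear pooled peaks and 62.6% of the peaks that are not members. A further 347 members overlapped a peak of replicate 1 alone, 253 a peak of replicate 2 alone and 7 neither. On the list of replicate 1, 1278 members (83.1%) had a median signal of 19.0, with a maximum of 60.8. The list itself began at 12.1. On the list of replicate 2, 1184 members (77.0%) had a median of 16.1 and a maximum of 55.3, and this list began at 10.1. The medians of the other peaks were close to these, at 19.1 in replicate 1 and 16.1 in replicate 2.

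The replicate signals of the members were only weakly correlated. Across the 931 peaks on both lists, which share their positions and the pooled call, Spearman's rho between the replicate signals was 0.065 and Pearson's r of the log2 signals was 0.18. Of the 931, 106 overlapped a replicate peak that another member also overlapped, and over the 825 that shared none, rho was 0.0019 and r was 0.10. Each replicate list stops at a lower limit, and the weakest member had a pooled signal of 26.3. Weaker peaks thus do not enter these values. The pooled signal is about the sum of both replicate signals, so a cut on it lowers their correlation by construction. The correlations therefore do not measure how well the replicates agree on the order of peaks. Replicate 1 was higher at 629 of the 931, with a median ratio of replicate 1 to replicate 2 of 1.17. The SD between the replicates of a peak had a median of 3.54, against an SD of 4.72 among the means of the 931 peaks. The replicate summits lay a median of 90 bp apart, and 499 pairs (53.6%) lay within 100 bp. Of the nuclear pooled peaks, 230 are in the IDR list. As many of the strongest peaks were taken from each replicate list as the IDR list holds nuclear peaks. Of the 1538 members, 23 overlapped one of replicate 1 and 40 one of replicate 2. The same count for the other peaks is not given here, so these counts have no background beside them.

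**Figure D1:**
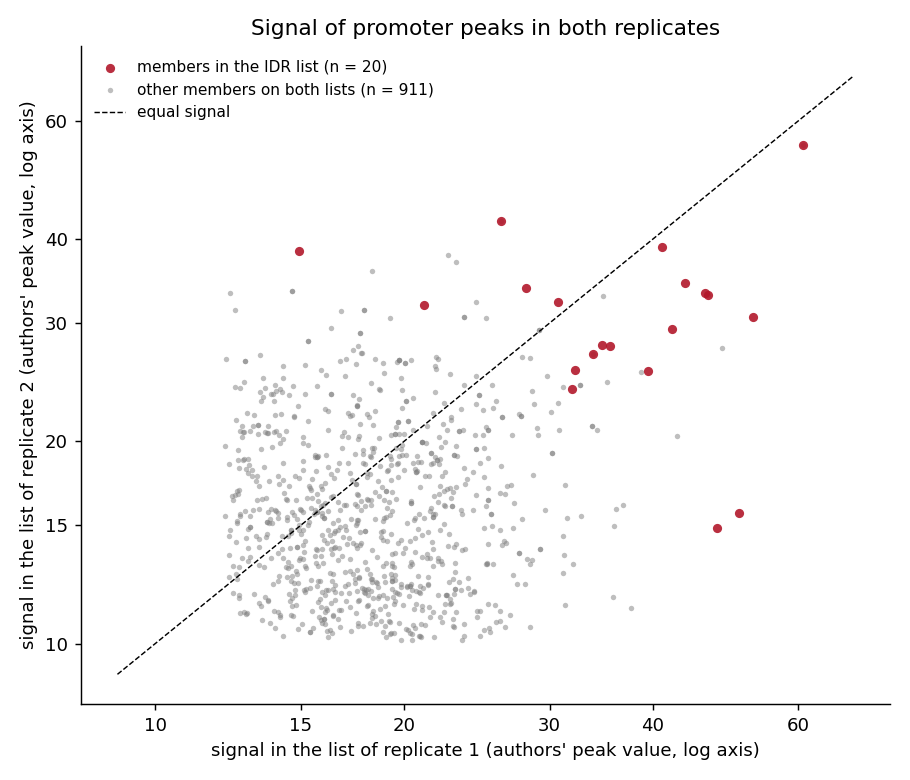
Signal of the 931 members found in both replicate lists, with replicate 1 on the horizontal and replicate 2 on the vertical axis, both logarithmic and in the authors' peak values. Each point is 1 peak, red for the 20 in the IDR list and grey for the other 911. The red points reach 60.8 and 55.3 at the upper right, 3 of them lie far from the dashed line of equal signal, and the grey points form a cloud with Spearman's rho of 0.020.

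The share found in both replicate lists was higher at higher pooled signal. In the 385 members of lowest pooled signal, 39.5% overlapped peaks in both lists, in the next 384 members 47.7%, then 67.2% of 384 and 87.8% of the 385 of highest signal. A peak that has signal in both lists reaches a higher pooled value, so this order follows in part from how the pooled signal is made. From lowest to highest, the same 4 sets had 10.6%, 10.9%, 11.7% and 16.1% of their summits in divergent promoters, described below, and the 100 strongest had 23.0%. Mean GC content was 37.7%, 37.7%, 37.8% and 39.9%, and it was 43.4% in the 100 strongest and 48.7% in the 20 of the IDR list. E-boxes were in 35.3%, 32.6%, 30.5% and 31.9%, and the intervals of the lowest (30.7% to 40.2%) and the highest set (27.5% to 36.8%) overlapped.

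**Figure D2:**
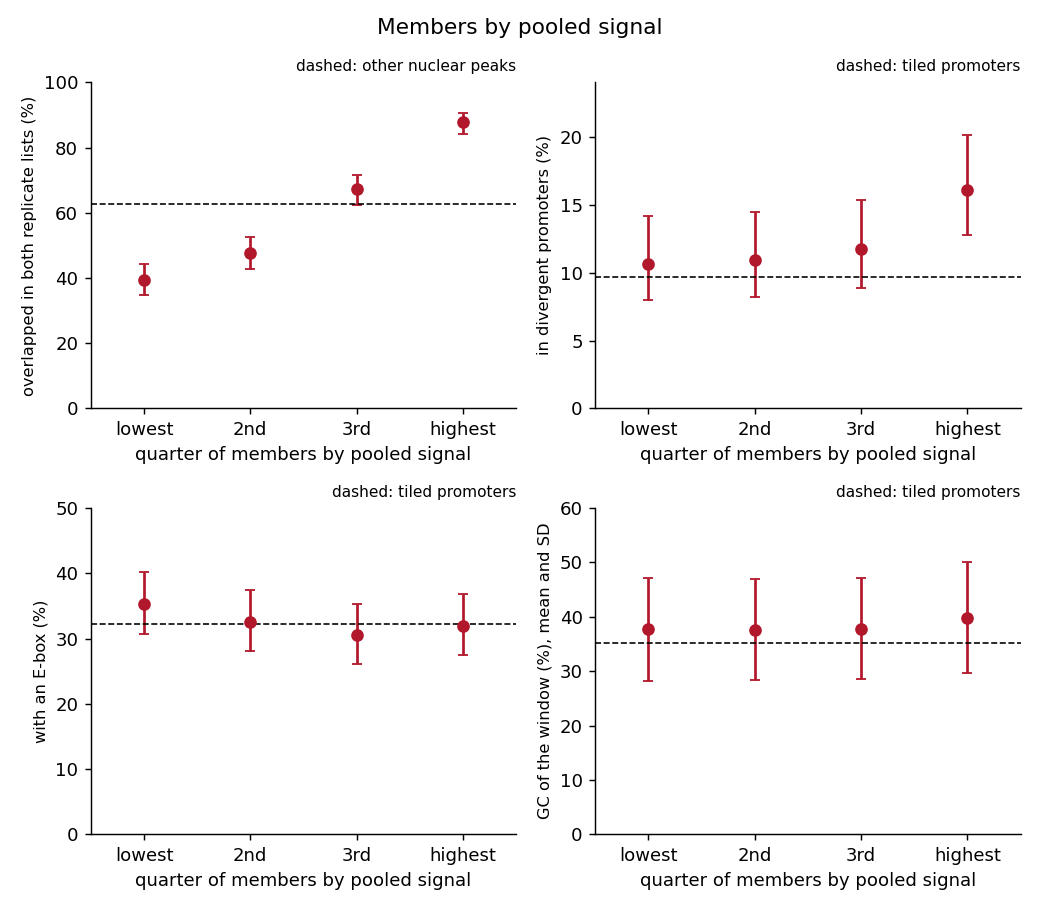
Members divided by pooled signal into 4 sets of 384 or 385, from lowest to highest along each horizontal axis. Points show the share overlapped in both replicate lists, in divergent promoters and with an E-box, with 95% Wilson intervals, and the mean GC with its SD over peaks, and dashed lines show the value of the other nuclear peaks or of windows tiling all promoters. The share in both lists runs from 39.5% to 87.8%, while the E-box share stays near the 32.2% of the tiled windows.

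The members touched 1672 of the 19973 nuclear protein-coding genes, or 8.37%. Of the 1538 peaks, 1325 lay in the promoter of 1 gene, 203 in those of 2 genes and 10 in those of 3. Among the genes, 1584 had 1 member peak, 87 had 2 and 1, ins-39, had 3. ins-39 encodes an insulin-related peptide. Its peaks lay 719 bp and 950 bp upstream and 148 bp downstream of the 5′ end, with pooled signals of 42.1, 28.2 and 28.1. The first and second overlapped the same replicate peaks, 25.3 in replicate 1 and 16.4 in replicate 2, so they are not separate in those lists. The third had 21.4 in replicate 1 and no peak in replicate 2. When the same rule was applied to the strongest 6661 nuclear peaks of each replicate, it gave 1518 peaks at 1649 genes in replicate 1 and 1485 peaks at 1619 genes in replicate 2. The sets shared 350 genes, 21.2% of those of replicate 1 and 21.6% of those of replicate 2. Of all coding genes, 8.26% were in the set of replicate 1 and 8.11% in that of replicate 2.

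Neither gene of the transgene design carried a member peak. The nearest member summit lay 91233 bp from hlh-12 itself and 8169 bp from unc-119, the gene used to select transgenic worms. A peak outside the member set stood much closer to hlh-12, at 2914 bp. Its value in the pooled list was 36.2, above the median of 30.6 for all nuclear peaks. Near unc-119 no peak of that list was closer than the member. Of 29 genes tied to distal tip cell migration, 3 (10.3%, 3.58% to 26.4%) had a member peak, against the 8.37% of all coding genes. These were ced-5, mig-2 and ced-12. mig-2 encodes a Rac-like GTPase, and ced-5 and ced-12 encode the parts of a complex that activates Rac, which steers migrating cells and the engulfment of dying ones. The stronger ced-5 peak, 219 bp upstream and shared with F01D4.5 on the other strand, had 18.7 in replicate 1 and 23.9 in replicate 2 (21.3 ± 3.62, SD, n = 2). A second ced-5 peak 860 bp upstream had 11.8 in replicate 2 and no peak in replicate 1. mig-2 had 23.0 and 10.6 with the summit 920 bp upstream. ced-12 had 12.6 and 16.7 at 45 bp upstream, and the value of replicate 1 lay near the lower end of its list. The other 26 genes of the list had no member peak, among them those for the metalloproteases GON-1 and MIG-17, the netrin UNC-6 and its receptor UNC-40.

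Of the 27 gene lists, 7 had a share above that of all coding genes in the pooled list and in both replicate lists. Another 8 had one below in all of them, and 12 changed side between the lists. The pooled list was made from both replicates, so its side is no separate measurement. Besides distal tip cell migration, the 7 were cytosolic and mitochondrial ribosomal proteins, histones, mitochondrial respiration, splicing and the proteasome. Cytosolic ribosomal protein genes had 13 of 80 (16.3%, 9.75% to 25.8%), with rpl-3 at 68.7 pooled, rpl-15 at 56.4 and rpl-35 at 42.7. At rpl-15 the replicates gave 25.1 and 30.5, and at rpl-35 they gave 17.8 and 27.0. By each replicate alone, the share was 18 of 80 (22.5%) in replicate 1 and 15 of 80 (18.8%) in replicate 2, where all coding genes had 8.26% and 8.11%. Mitochondrial ribosomal protein genes had 9 of 69 (13.0%, 7.02% to 23.0%), and all 9 had a peak in both replicate lists, against 60.5% of all members. mrpl-32 led them with 41.3 pooled (25.1 in replicate 1 and 13.1 in replicate 2), followed by mrpl-37 with 38.1.

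Histone genes had 13 of 82 (15.9%, 9.51% to 25.3%). The peak at his-31 and his-32, a divergent pair for histones H4 and H3 on chromosome IV, had 28.8 in replicate 1 and 22.8 in replicate 2. Its summit lay in the coding exon of his-32, 98 bp downstream of its 5′ end, and 420 bp upstream of his-31. his-60 had 14.6 and 33.5, which again was high in 1 replicate only. Histone genes occur in clusters of near-identical copies, and the sources used here do not say how reads with several matches were placed. By each replicate alone the share was 9 of 82 (11.0%) in both lists.

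Genes of mitochondrial respiration had 6 of 37 (16.2%, 7.65% to 31.1%). isp-1, the Rieske iron-sulfur protein of complex III, had 20.5 in replicate 1 and 20.8 in replicate 2, and nuo-2, a complex I subunit, had 18.9 and 13.1. cox-5B, a complex IV subunit, had 22.7 and 14.6. Splicing and Sm protein genes had 7 of 48 (14.6%, 7.25% to 27.2%), with prp-19 at 22.0 and 26.5. prp-39 appeared in replicate 1 alone (33.5) and lsm-8 in replicate 2 alone (15.3). Proteasome genes had 3 of 31 (9.68%), with 3 by replicate 1 alone and 5 by replicate 2 alone.

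Other lists of genes used in many cells changed side between the lists. Translation factors had 5 of 39 (12.8%), but 4 (10.3%) by replicate 1 alone and 2 (5.13%) by replicate 2 alone. Among them was eef-2, elongation factor 2, with 16.3 and 16.5. Heat shock protein genes had 3 of 22 (13.6%), which were hsp-60, hsp-6 and hsp-3, but 1 (4.55%) by replicate 1 alone. Cell cycle genes had 7 of 59 (11.9%), but 4 (6.78%) by replicate 1 alone, with cdc-48.1 at 13.7 and 17.5 and cye-1, cyclin E, at 17.8 and 18.6. RNA polymerase subunits and general factors had 4 of 44 (9.09%), with 3 (6.82%) by replicate 1 alone. Aminoacyl-tRNA synthetases had 2 of 32 (6.25%), with 1 (3.13%) by replicate 1 alone and 3 (9.38%) by replicate 2 alone. In the pooled list, the 8.37% of all genes lay inside the intervals of all the lists above except those of the cytosolic ribosomal proteins and the histones.

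Large families of environmental and sensory genes had shares below 8.37%. Chemoreceptor genes, the G protein-coupled receptors by which worms sense odours and tastes, had 55 of 1311 (4.20%, 3.24% to 5.42%). In the replicate lists alone the share was 74 of 1311 (5.64%) and 68 of 1311 (5.19%). srh-16 had the strongest of these peaks, with 23.6 in replicate 1 and 24.2 in replicate 2. srbc-58 had 35.9 and 14.9, and srx-21 had 26.2 and 18.4. Genes of C-type lectins and innate immunity had 16 of 342 (4.68%, 2.90% to 7.46%), led by clec-60 (22.3 and 16.9) and clec-165 (29.6 and 15.8). In replicate 1 alone their share was 7.89%, close to the 8.26% of all genes. Nuclear hormone receptor genes had 15 of 274 (5.47%, 3.35% to 8.83%). nhr-222 led them with 32.0 and 13.1, followed by nhr-221 with 22.6 and 17.0 and nhr-188 with 20.5 and 10.7. Sperm genes had 2 of 76 (2.63%, 0.725% to 9.10%), spe-48 and spe-42. The intervals of the chemoreceptors and of the lectin and immunity genes lay below 8.37%, while those of the nuclear hormone receptors and of the sperm genes held it.

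Regulatory and signalling genes changed side between the lists. Homeobox genes had 8 of 92 (8.70%), against 9 (9.78%) by replicate 1 alone and 4 (4.35%) by replicate 2 alone, and were led by ceh-82 (18.0 and 12.01), ceh-39 (24.6 in replicate 2 alone) and ceh-20 (19.8 in replicate 1 alone). Of the 8, 1 had a peak in both replicate lists, against 60.5% of all members. This count is given here for only some of the gene lists. Other basic helix-loop-helix genes had 3 of 41 (7.32%), and 5 (12.2%) by replicate 2 alone. The 3 were mxl-3 (17.5 and 26.1), hlh-15 (14.0 and 15.8) and hlh-26 (20.3 in replicate 2 alone). mxl-3 encodes a Max-like factor that acts in lipid metabolism in C. elegans. Genes of Wnt, Notch, TGF-beta and EGF signalling had 4 of 66 (6.06%), but 7 (10.6%) by replicate 1 alone and 1 (1.52%) by replicate 2 alone. mig-14, which releases Wnt ligands from cells, had 18.9 and 14.3, lit-1, a Nemo-like kinase, 17.6 and 12.5, and wrm-1, a beta-catenin, 19.8 and 12.1. Neuropeptide genes had 14 of 140 (10.0%), 17 (12.1%) by replicate 1 alone and 11 (7.86%) by replicate 2 alone, among them flp-15 (20.5 and 23.2), ins-16 (20.5 and 18.6) and ins-39.

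The lists of cuticle collagens, detoxification, ubiquitin ligase adaptors and muscle stayed below the share of all genes in the pooled and both replicate lists. Their pooled intervals, in this order, were 4.44% to 12.4%, 3.75% to 11.0%, 4.71% to 9.58% and 2.40% to 18.6%. Each of these intervals held the 8.37% of all genes. Cuticle collagen genes had 13 of 173 (7.51%), with col-63 at 36.8 in replicate 1 and 16.1 in replicate 2 ahead of col-85 at 14.6 and 12.4 and sqt-2 at 14.9 and 13.9. Detoxification genes had 12 of 185 (6.49%), and 6 (3.24%) by replicate 1 alone, with ugt-18 at 19.3 and 18.9 and cyp-34A6 at 17.1 and 20.3. Ubiquitin ligase adaptor genes had 28 of 415 (6.75%), with fbxb-58 far ahead of fbxb-72 (12.5 and 31.3) and fbxb-47 (25.3 and 20.8). Muscle genes had 3 of 43 (6.98%), the troponin I genes unc-27 and tni-1 and the myosin gene myo-1, with 1 (2.33%) by replicate 2 alone. The lists of other tissues changed side. Intestine and yolk genes had 6 of 96 (6.25%), led by spp-29, but 11 (11.5%) by replicate 1 alone. Germline and oocyte genes had 3 of 51 (5.88%), mex-1, puf-11 and csr-1. None of the 3 was on both replicate lists, against 60.5% of all members. By replicate 1 alone the germline share was 2 (3.92%) and by replicate 2 alone 7 (13.7%). Neuronal and synaptic genes had 3 of 43 (6.98%), ehs-1, ric-19 and sng-1, and 5 (11.6%) by replicate 2 alone.

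**Figure D3:**
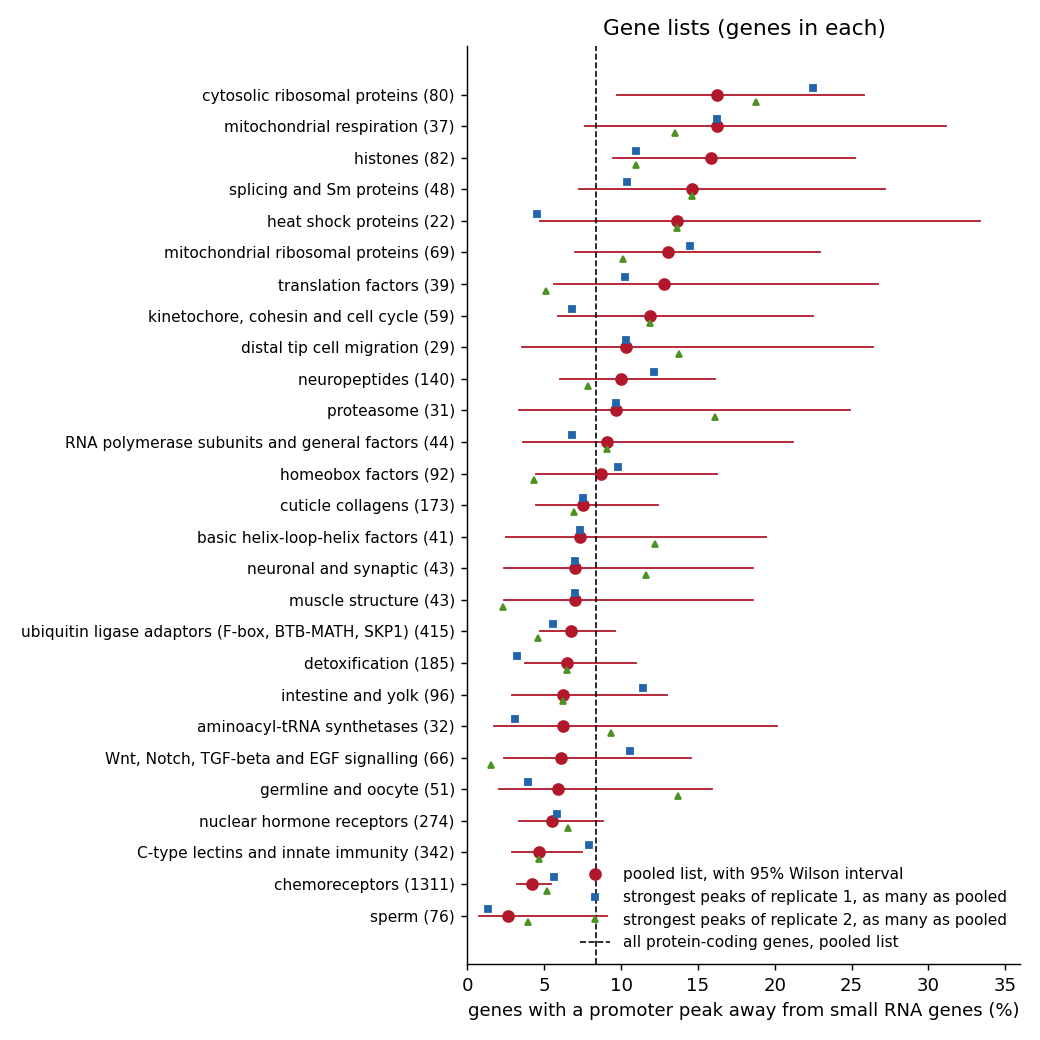
Share of the genes of each list that had a member peak in their promoter, with the number of genes of the list in parentheses. Red points and lines give the pooled list with 95% Wilson intervals, blue squares and green triangles the same rule on the strongest peaks of replicate 1 and replicate 2, and the dashed line the 8.37% of all coding genes. Cytosolic ribosomal protein genes (16.3%) lie at the top, and chemoreceptors (4.20%) and sperm genes (2.63%) at the bottom.

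Divergent promoters, where a summit lies in the promoters of genes on opposite strands, held 190 members (12.4%, 10.8% to 14.1%), against 9.67% of the windows that tile all promoters. It was 12.4% of the 1278 members that overlap a peak of replicate 1 and 12.4% of the 1184 that overlap one of replicate 2. These are subsets of the same members, so they are no separate measurements. In 140 of the 190 the summit lay upstream of 5′ ends on both strands. The 5 strongest were the peaks of F56G4.6 and wbp-4, of cux-7 with C07H6.2 and lig-4, of atx-2 and ecps-1, of pcrg-1 and E04F6.6, and of egrh-2 and lep-2. Divergent members had a median pooled signal of 32.0, against 30.4 for the others, and 27.4% of them held an E-box, against 33.3% of the others. On chromosome I, 41 of 224 members (18.3%, 13.8% to 23.9%) were divergent, against 11.7% of the tiled windows there. On X it was 8 of 223 (3.59%, 1.83% to 6.92%), against 3.70% of the tiled windows there. Taken alone, the strongest peaks of replicate 1 gave a divergent share of 11.5% and those of replicate 2 gave 12.2%. The divergent share of members varied with distance from the 5′ end. It was 2.07% in those farthest upstream (median -892 bp) and 19.4% in those just upstream (median -109 bp). Members lay nearer to 5′ ends than the tiled windows (medians 276.5 bp and 364 bp upstream), which were not matched for distance. Whether the divergent share exceeds that of tiled windows at like distances was not tested.

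The summits gathered toward the 5′ ends. Their median position was 276.5 bp upstream of the nearest 5′ end, against 364 bp for the tiled windows. The span from 300 bp upstream to 200 bp downstream held 804 members (52.3%, 49.8% to 54.8%), against 44.9% of the tiled windows, and it held 63 of the 100 strongest. The fullest 100 bp bin ran from 200 to 100 bp upstream, with 12.2% of the members, against 8.77% of the tiled windows. This bin held 11.5% of the members that overlap a peak of replicate 1 and 13.2% of those that overlap one of replicate 2. These are again subsets of the same members and no separate measurements. Downstream of the 5′ end lay 317 members (20.6%), against 18.4% of the tiled windows. By the strongest peaks of each replicate alone, the 300 to 200 bp span held 49.3% in replicate 1 and 51.6% in replicate 2, with medians of 309 bp and 283 bp upstream. At the upstream end of the window, the 89 members in its outer 100 bp had a median pooled signal of 30.2, and the 81 peaks in the next 100 bp outside had 30.8. At the downstream end these medians were 30.4 for the 167 members inside and 30.6 for the peaks outside.

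**Figure D4:**
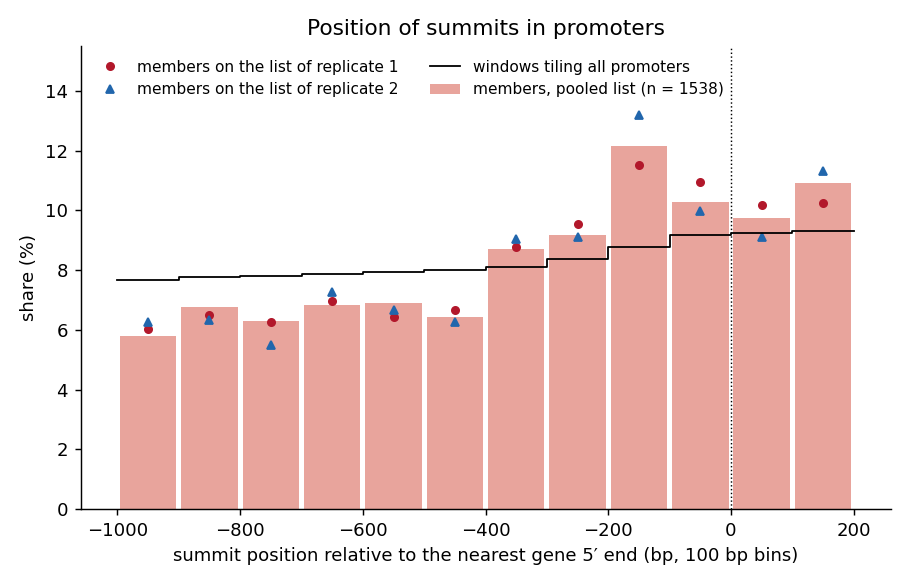
Share of summits in each 100 bp bin by distance from the nearest gene 5′ end, negative upstream. Bars show the 1538 members, and the black line the windows that tile all promoters. Red circles and blue triangles show the subsets of the same members that overlap a peak of replicate 1 and of replicate 2. The bars exceed the line from 400 bp upstream on, most at 200 to 100 bp upstream (12.2% against 8.77%).

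By the annotation of the summit base, 875 members (56.9%) were intergenic, 321 (20.9%) in coding exons, 190 (12.4%) in introns and 152 (9.88%) in untranslated exons. The tiled windows had 57.3%, 21.4%, 12.7% and 8.64% in these places. Of the 20 members of the IDR list, 17 were intergenic.

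The chromosomes held members much as they hold promoters. Chromosome V had 354 members (23.0%, 21.0% to 25.2%), against 25.02% of the tiled windows, and II had 270 (17.6%), against 17.2%. On X there were 223 (14.5%, 12.8% to 16.3%), against 14.5% of the tiled windows, 17.7% of the genome's length and 21.7% of the peaks that are not members. The share of genes with a member peak lay between 7.83% on V and 9.13% on III. The replicates differed in the share on X: among the strongest peaks of replicate 1 it was 16.7% of the members, against 24.3% of the other peaks, and in replicate 2 it was 12.9%, against 18.8%. In each list the share on X was lower among members than among the other peaks, and no test of this was run.

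**Figure D5:**
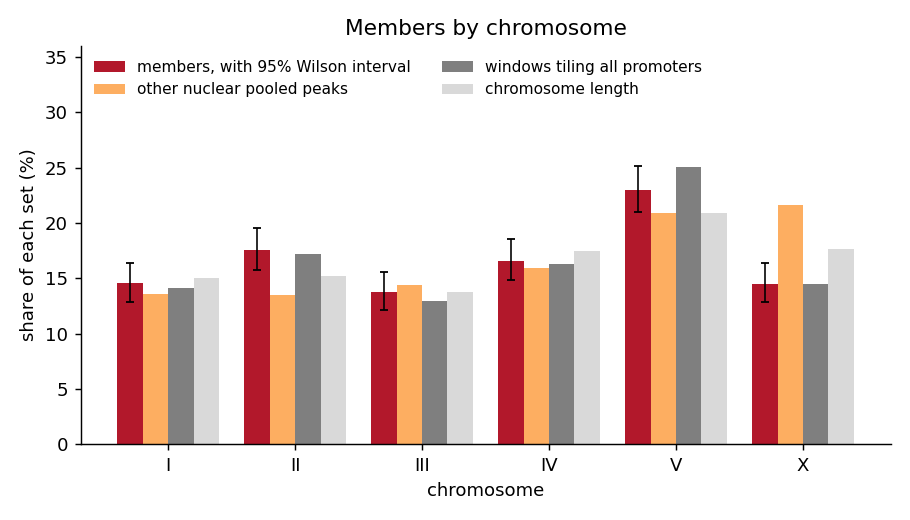
Share of each set that lies on each nuclear chromosome. Red bars with 95% Wilson intervals show the 1538 members, orange bars the other nuclear pooled peaks, dark grey bars the windows that tile all promoters and light grey bars chromosome length. On X the members stand at 14.5%, level with the tiled windows and below the 21.7% of the other peaks.

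The share of member summits with an E-box was close to that of promoters at large. Within 50 bp of the summit, 501 members (32.6%, 30.3% to 35.0%) held CANNTG, against 30.7% of the flanking windows and 32.2% of the tiled windows, or 33.7% of tiled windows weighted to the GC content of the members. Of the peaks that are not members, 32.7% did. The form CACATG was in 48 members (3.12%, 2.36% to 4.11%), against 3.02% of the flanking and 3.17% of the tiled windows. The form CACCTG was in 53 (3.45%, 2.64% to 4.48%), against 2.41% and 2.60%, or 3.06% of tiled windows at the GC content of the members. The most frequent form was CAAATG with 8.19%, the same share as in the flanking windows, and CACGTG, the form of Myc and Max proteins, was in 1.76%, against 1.79% and 1.70%. All motifs were searched on both strands. Members with an E-box had a median pooled signal of 30.2, against 30.6 for those without one, and 59.5% of them were in both replicate lists, against 61.0%. Of the 20 members of the IDR list 8 held an E-box, as in the windows of fbxb-58, F59A1.18, rpl-3, nspc-17 and atx-2 printed above, and 12 did not.

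Other promoter motifs were examined in the same windows. TATAAA, the core of the TATA box, was in 11.6% of members, against 11.2% of the flanking and 12.6% of the tiled windows. TGATAA, the site of GATA factors such as those of the worm intestine, was in 7.74% (6.50% to 9.18%), against 9.40% and 10.3%, or 9.13% at the GC content of the members. CCGCCC, the core of Sp1-like sites, was in 52 (3.38%, 2.59% to 4.41%), against 1.95% and 1.83%, or 2.84% at that GC content. GTTCGA, part of the internal promoter of tRNA genes, was in 3.32%, against 3.51% and 3.56%. TTTCAG, the end of worm introns, was in 17.9%, against 19.5% and 19.8%, and GAGAGA in 6.57%, against 5.95% and 5.90%. A match describes these letters in the window and shows no binding.

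The 6-mers found in at least 2% of the members were ranked, counted together with their reverse complements. Those with the largest ratio of members to tiled windows were made mostly of G and C. CGCGCC was in 58 members (3.77%), against 1.27% of the flanking and 1.26% of the tiled windows. Weighting the tiled windows to the GC content of the members raised the last value to 2.13%. CTAGGC was in 62 (4.03%), against 1.79% and 1.44%, or 1.73% with the weights. CACGCC was in 56 (3.64%), against 1.20% and 1.36%, or 1.96% with the weights. The limit of 2%, which 1695 6-mers passed, was set on the members alone and not on the tiled windows. All 3 of these 6-mers were below 2% in the tiled windows, so they were ranked only through their share in members. The limit raises the ratios at the top of such a ranking, which therefore shows no enrichment by itself.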

How the data were processed

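ChIP-seq peak lists in ce11 of 2 biological replicates, of both together and of the IDR list were used. The authors called the relaxed lists with a control, per the deposited file listings, and no source used here names the aligner or caller. The authors deposited a signal and a −log10 q for every peak. The p-value column held no values, and read depth is unknown. The ce10 lists, signal tracks and control library were not analysed here.

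Summits, converted to count from 1, were compared with Ensembl 115 genes and the RefSeq genome of WBcel235, and product names came from RefSeq. A replicate signal was the highest signal of a replicate peak overlapping by at least 1 bp. Background windows had the length of the motif windows (50 bp to each side of the centre), did not overlap, and lay in promoters under the member rule. GC weights used 5% bins. The 27 gene lists were counted by gene identifier. Named were the genes of IDR-list members, up to 3 genes per list with the strongest peak, hlh-12, unc-119 and distal tip cell genes with a peak, and the genes of the 5 strongest divergent members. The members and lists were chosen with earlier results of these data known, and name patterns of 4 lists (chemoreceptors, cuticle collagens, splicing, sperm) were corrected after their values were seen, to drop genes caught by mistake. Scripts ran in Python 3.11.15 with numpy 2.4.6, scipy 1.17.1 and matplotlib 3.10.9 and were tested on simulated peaks. The alternatives were other promoter windows, transcript 5′ ends, stricter distances, stronger peaks, merged neighbours, other motif windows, stricter overlap and each replicate alone.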

Additional observations from a re-analysis of the deposited data

How the results depend on the processing

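No paired analysis was possible because the study has 1 group, so that the replicate numbers pair nothing. Of the values recomputed, 88 stayed within 1.5 times the count, the interval of the share or the spread of the replicates, and 24 moved. With promoters of 500 bp upstream the members gave 1094 genes, a divergent share of 7.81% and a median of -127 bp. With 2000 bp upstream and 500 bp downstream they numbered 2663 at 3067 genes, with 17.7% and -415 bp. The upper part of the pooled list by signal gave 752 members at 838 genes, 14.1% divergent, 78.3% in both replicate lists, 2.66% in the IDR list, 2.26% with CACATG and -239 bp. Overlap of at least 50% of the peak left 54.4% in both lists, and replicate summits within 100 bp 37.7%. Motif windows of 25 bp to each side gave 17.8% with CANNTG and 1.11% with CACATG, and windows of 100 bp 52.7% and 5.27%. With each replicate left out in turn, the members numbered 1485 to 1518 at 1619 to 1649 genes, of which 743 (without replicate 1) and 883 (without replicate 2) were among the 1672 genes of the pooled list. The pooled list held 8.37% of all coding genes and was made from both replicates, so some sharing is built in. The divergent share of these members was 11.5% to 12.2%, the share on X 12.9% to 16.7%, with CANNTG 29.8% to 32.0%, with CACATG 2.09% to 3.16%, and the median -309 to -283 bp. Values under other windows and overlaps moved by how these are built. For the stronger part of the list and for the replicates the cause was not tested. Removal of members near pseudogenic tRNAs, added after the data were seen, left 1535. Read depth is unknown, which limits what a missing peak can show.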

Other observations

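The 6-mer CTAGGC, chosen here after its values were seen, marked 62 members, and 36 of these windows also held the overlapping 6-mer GGCCTA, against 22 of the 1476 members without CTAGGC. Read on the other strand, CTAGGC is GCCTAG and shares the letters GCCTA with GGCCTA, so this contrast is in part built in. The median pooled signal of the 62 members was 33.6, against 30.4 for the members without CTAGGC. Of the 62, 67.7% (55.4% to 78.0%) were in both replicate lists, against 60.2% (57.7% to 62.7%). In the list of replicate 1 their median signal was 18.7, against 19.0, and in that of replicate 2 it was 16.4, against 16.1. Windows mostly masked as repeats in the RefSeq genome made up 24.2% of the 62 (15.2% to 36.2%), against 26.8% of the others. The mean share of masked bases went the other way, at 37.7% in the 62 against 32.6% in the others. Mean GC was 42.9%, against 38.1%. 2 of the 62 were in the IDR list, one of them the peak at cux-7, C07H6.2 and lig-4. The peak at cdgs-1, whose window is printed in the report, also holds both 6-mers.

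A summit at Y69A2AR.31, the strongest member outside the IDR list, lay inside a pseudogenic tRNA of the RefSeq annotation, a class that the rule did not name. It had 42.8 in replicate 1 and 20.4 in replicate 2. In all, 3 of the 1538 members lay within 200 bp of one of the 209 nuclear pseudogenic tRNAs.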
